A study of Mus musculus with 12 samples.

Results

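Brain RNA of mice of the New Plat knockout strain was compared with that of wild-type (WT) mice in 7 of the 12 libraries of the series, all 4 New libraries and 3 of the 4 WT libraries. The members were selected on measured values: the fourth WT library (WT 4) was set aside because its values followed the GC content of the transcripts. Transcripts under 40% GC lay 0.71 log2 units below the 12-library mean in WT 4 (a median deviation of -0.71), and those of at least 60% GC lay 0.63 above it. In the 7 libraries kept, the same medians ran from 0.042 to 0.177 and from -0.191 to -0.083. These deviations are a description and were not tested, and the main counts and the genes described are given with WT 4 as well where the choice moved them.

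The New mice had the genotype Plat-/-, the WT mice carried both working copies, and all were 6 weeks old on a C57BL/6 background and were killed with CO2. A further knockout strain, Old, completes the series. Which stretch of Plat the mutations remove is not given in the labels. Knockout mice were kept by the laboratory and WT mice were bought from Jackson Labs, so loss of Plat and origin of the animals cannot be told apart. Each library came from 1 mouse whose sex is not given.

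Tissue-type plasminogen activator (tPA), the protein made from Plat, is a secreted serine protease that cuts plasminogen into plasmin, the enzyme that dissolves fibrin clots. In brain it is released by neurons and glia, is inhibited by neuroserpin and related serpins, is cleared by the receptor LRP1, and acts on matrix proteins, growth factor precursors and glutamate receptors. It is studied there for synaptic plasticity, for excitotoxic injury and for the permeability of the blood-brain barrier.

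Facts of the libraries bear on what follows. The label names cerebral cortex, while the protocol describes brains without olfactory bulb and cerebellum. Markers of deeper regions were present: the thalamic genes Tcf7l2 and Prkcd added up to between 28.7 and 31.2 FPKM over the 7 libraries and the striatal genes Drd2, Adora2a and Ppp1r1b to between 80.0 and 87.5 FPKM, whereas 3 cerebellar genes added up to between 0.858 and 2.28 FPKM. Values are FPKM, which scale fragments by transcript length and by library, so depth and counting error are unknown. The protocol describes a kit that selects polyA RNA and does not mark strand, while a label calls the libraries rRNA-depleted. Which of the selections was used was not tested. Y-linked Ddx3y stood at 13.4 FPKM in New 1, where Xist, made from the inactive X chromosome, stood at 0.0315 FPKM. New 3 held neither transcript, with Xist at 0.00152 FPKM and Ddx3y listed at 0. The other 5 libraries had Xist between 2.49 and 5.89 FPKM and Ddx3y at or below 0.0242 FPKM. All of WT 1 to WT 3 were among these, as were New 2 and New 4. WT 4 had Xist at 0.0180 FPKM and Ddx3y at 6.51 FPKM. Thus WT 4 differed from WT 1 to WT 3 in these transcripts as well as in GC deviation, and comparisons with WT 4 added carry both. New also differed from WT 1 to WT 3 in these transcripts, through New 1 and New 3. The part of sex in the comparison of the 7 libraries was not tested. In bulk tissue, fewer cells of a type and less RNA per cell cannot be told apart.

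Plat itself fell in New brain. Plat (chr8:22757727-22782844, plus strand, mm10, protein-coding) had 2.82, 2.77, 3.15 and 2.77 FPKM in the New libraries, against 9.83, 8.01 and 8.94 FPKM in WT 1 to WT 3. All New values lay below all WT values, and WT 4, at 6.93 FPKM, also lay above New. The difference was -1.60 (SE 0.08) on the log2(FPKM + 0.1) scale (limma, adjusted p = 0.00157), and New kept 32.2% of the WT mean. With WT 4 added it was -1.51 (limma, adjusted p = 0.01001). Permuting the 7 libraries exactly (two-sided, the smaller tail doubled) gave p = 0.0571. With 4 and 3 libraries this is the smallest value that the doubled form can give, so no single gene can reach 0.05 by it. The value pools all exons of the gene, and which exons gave the remaining fragments was not analysed here.

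**Figure D1:**
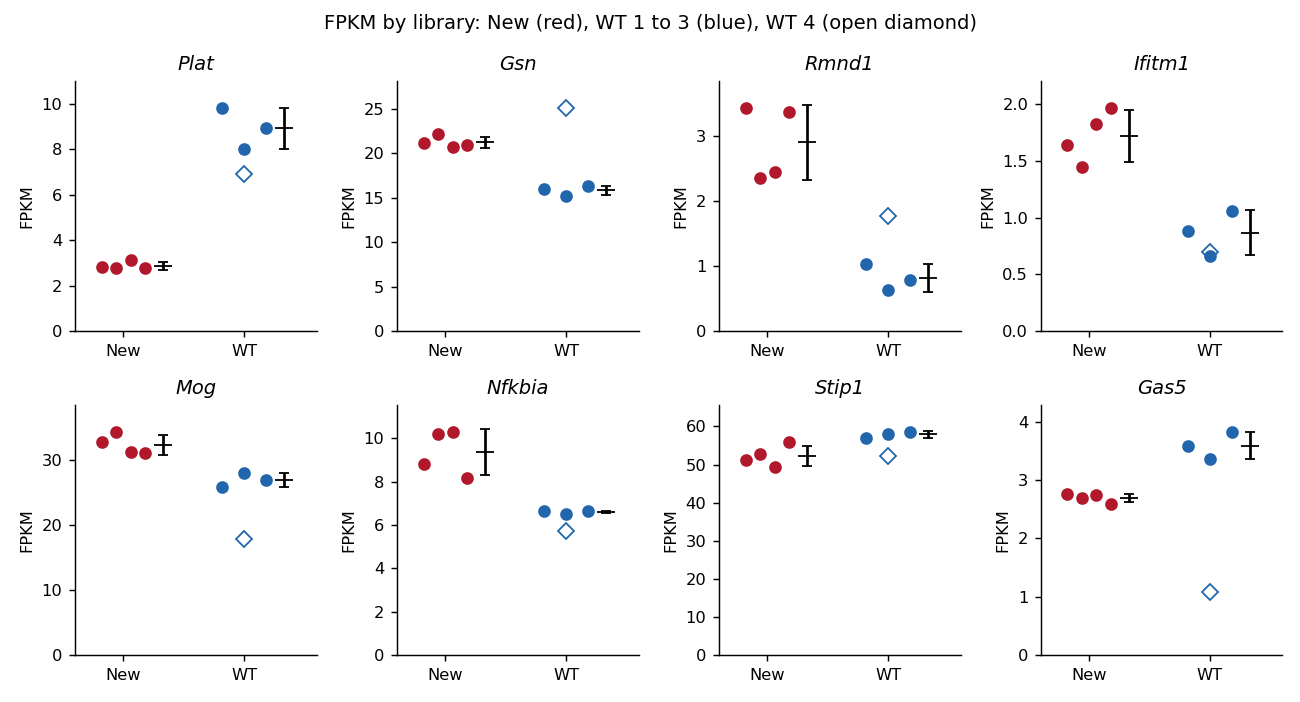
FPKM of 8 genes in each library, with New at the left (red) and WT 1 to WT 3 at the right (blue); the bar beside each group is its mean and SD, and the open diamond is WT 4. Plat is low in all 4 New libraries (2.77 to 3.15 FPKM), while for Gsn the diamond (25.1 FPKM) lies above every New value.

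Beyond Plat, few genes passed the test. Of 16149 genes tested, 3 (0.0186%) were called at an adjusted p under 0.05. The 2 higher genes, Gsn and Snord47, were 0.0124% of those tested, and the 1 lower gene, Plat, was 0.00619%. Without adjustment, p lay under 0.05 for 765 genes in the higher direction (4.74%) and 867 in the lower (5.37%). All 4 New libraries lay above all 3 WT libraries for 807 genes (5%) and below them for 943 (5.84%). These counts rest on leaving WT 4 out. With WT 4 entered, p lay under 0.05 for 209 higher (1.29%) and 102 lower (0.631%) of 16156 genes, and New lay above all 4 WT libraries for 313 (1.94%) and below them for 107 (0.662%). With WT 4 and the GC trend removed, 385 (2.38%) were higher and 357 (2.21%) lower at an unadjusted p under 0.05. In the 7 libraries with the GC trend removed, 657 (4.07%) were higher and 567 (3.51%) lower. The median difference of all genes was -0.01, 90.5% of genes lay within 0.25 of 0, and 96.8% lay within 0.5. For 98.5% of the 13260 protein-coding genes the 95% interval of the difference stayed inside -1 to 1, and for 88.4% inside -0.5 to 0.5. The interval of Plat, -1.79 to -1.41, lay outside both.

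The sign of the small differences followed GC content. Genes under 40% GC had a median difference of -0.07, with 153 of 1001 genes lower without overlap and 10 higher. Genes between 55% and 60% GC had a median of 0.05, with 41 of 2668 lower and 309 higher, and those of at least 60% GC had 7 of 710 lower and 77 higher. The gradient turned round when WT 4 was added, with medians of 0.15 under 40% GC and -0.14 at 60% GC or more. With the GC trend removed from the 7 libraries, 2 genes were called, Plat and Snord47.

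**Figure D2:**
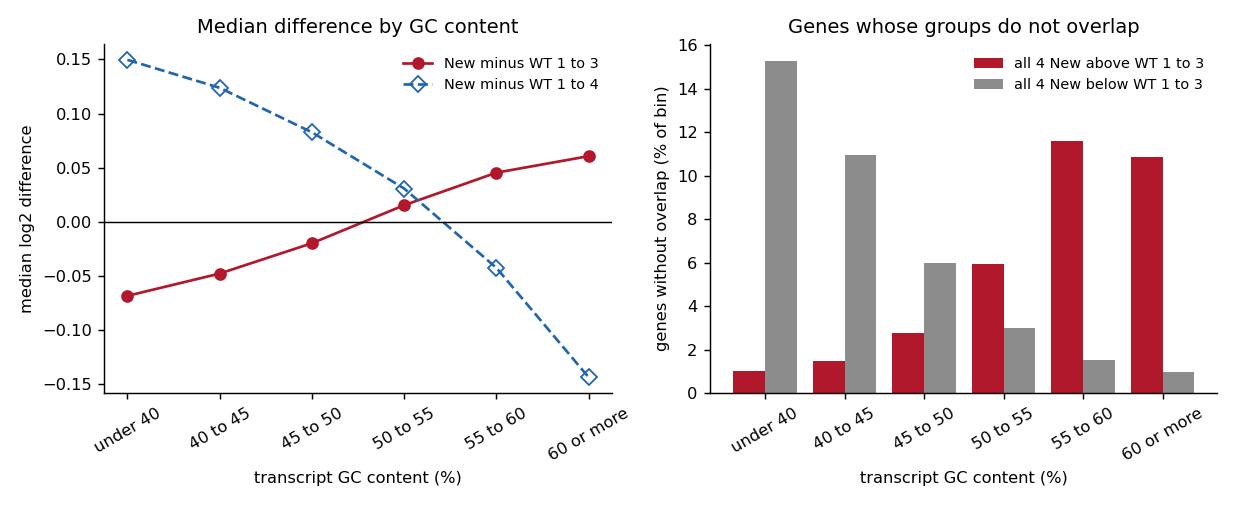
Left, median log2 difference of New minus WT in 6 classes of transcript GC content (%), for WT 1 to WT 3 (red circles) and with WT 4 added (open diamonds). Right, percentage of genes in each class whose New libraries all lie above (red) or all below (grey) WT 1 to WT 3. The red line runs upward with GC content and the line with WT 4 runs downward.

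Gsn was the protein-coding gene that rose. It encodes gelsolin, which severs and caps actin filaments and which in brain is abundant in oligodendrocytes. Gsn (chr2:35256380-35307892, plus strand, mm10, 57.1% GC) had 21.1, 22.2, 20.7 and 20.9 FPKM in New, against 15.9, 15.2 and 16.3 FPKM in WT 1 to WT 3. The groups did not overlap, and the difference was 0.42 (SE 0.04; limma, adjusted p = 0.0355; exact permutation p = 0.0571). WT 4 went against it at 25.1 FPKM, above every New library, and with WT 4 added the difference was 0.26 (limma, adjusted p = 0.945). With the GC trend removed from the 7 libraries it was 0.38 (limma, adjusted p = 0.125). The call also ended without any 1 of New 1 to New 4, WT 1 or WT 2, and over 19 alternatives the adjusted p ran from 0.00325 to 0.945. In the Old strain the gene had 19.4, 19.9 and 19.7 FPKM in the libraries that resembled the 7 and 28.4 FPKM in Old 1. Both strains are set against the same WT libraries here, so these are not independent comparisons.

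Other gelsolin relatives gave no call. Of 8 listed members, 5 were tested. Flightless (Flii), an actin-binding regulator of transcription, differed by 0.00 (SE 0.05), supervillin (Svil), which ties actin to membranes, by -0.11 (SE 0.08), Vill by 0.14 (SE 0.16) and the capping protein gene Capg by -0.17 (SE 0.28). In a list of 29 genes of actin assembly and turnover, 0 were called by limma, 4 had an unadjusted p under 0.05 and all 4 stood higher, without overlap between the groups. Over all genes 4.74% were higher at that p and 5% were higher without overlap. With WT 4 entered, 0 members had an unadjusted p under 0.05 and 2 were higher without overlap, against 1.29% and 1.94% of all genes higher. With the GC trend removed from the 7 libraries, 8 members were higher and 0 lower at that p, against 4.07% and 3.51% of all genes.

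The largest rise in the actin list was that of Arpc1b, a subunit of the Arp2/3 complex that starts filament branches. It had 5.71, 6.01, 6.12 and 5.66 FPKM in New, against 4.63, 3.83 and 4.88 FPKM in WT, a difference of 0.40 (SE 0.08; limma, adjusted p = 0.440). The monomer-binding gene Twf2 stood 0.26 (SE 0.05) higher, and the cytoplasmic actin gene Actg1 stood 0.09 (SE 0.03) higher, as did Actb, named after its values were seen, by 0.08 (SE 0.03). WT 4 had 8.25 FPKM of Arpc1b and 15.2 FPKM of Twf2, above all New libraries, but 106 FPKM of Actg1, below them all. The median of the list was 0.00, against -0.01 for all genes.

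Snord47, a small nucleolar RNA, was the other call. It is shown because its value rests on a very short transcript and on zeros. It belongs to the box C/D class, which guides methylation of ribosomal RNA, and in the lines below capitals mark its first TGATGA and last CTGA, the letters of the C and D boxes. For the miRNA genes Mir701 and Mir1982, the next largest rises by rule, capitals mark the seed at bases 2 to 8 of each mature strand (RefSeq, GRCm38.p6).
Snord47 (chr1:161038082-161038158, plus strand, mm10): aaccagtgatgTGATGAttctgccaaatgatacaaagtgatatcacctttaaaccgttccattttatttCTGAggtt
mmu-miR-701-5p: uUAGCCGCugaaauagaugga
mmu-miR-701-3p: uAUCUAUUaaagaggcuagc
mmu-miR-1982-5p: uUGGGAGGguccuggggagg
mmu-miR-1982-3p: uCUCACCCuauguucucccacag

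Snord47 had 93.1, 62.1, 707 and 853 FPKM in New and was listed at 0 in WT 1, WT 2 and WT 3. WT 4 had 578 FPKM, inside the New range, and Old 2 to Old 4 had 653, 916 and 0 FPKM, so that libraries of every group held values of 578 FPKM or more. No fold is given against a group listed at 0. The limma call (adjusted p = 0.0305; exact permutation p = 0.0571) ended in 11 of 19 alternatives, WT 4 among them (adjusted p = 0.945).

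Mir701 had 30.1, 14.0, 39.6 and 16.4 FPKM in New, against 0, 0 and 9.30 FPKM in WT 1 to WT 3 and 19.8 FPKM in WT 4. Mir1982 had 148, 103, 146 and 121 FPKM in New, against 0, 0 and 68.4 FPKM in WT 1 to WT 3 and 343 FPKM in WT 4. Neither was called (limma, adjusted p = 0.444 each), the 4 seeds differ from each other, and a value of the gene does not tell its mature strands apart.

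These genes share their length with most of the large differences in the table. Of 262 tested transcripts under 200 bases, 206 were listed at 0 in at least 1 of the 7 libraries and 186 (71.0%) differed by more than 1 on the log2 scale, with a median SE of 2.15. Of 14022 transcripts of at least 1000 bases, 29 (0.207%) did, with a median SE of 0.07. Snord47 lies inside Gas5, a long non-coding host gene of small nucleolar RNAs, on the same strand. Gas5, chosen after its values were seen, had 2.76, 2.69, 2.74 and 2.59 FPKM in New, against 3.58, 3.36 and 3.84 FPKM in WT 1 to WT 3. It stood 0.40 lower (a difference of -0.40, SE 0.06) without passing the adjustment (limma, adjusted p = 0.370), and WT 4 was lower still at 1.09 FPKM.

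Among protein-coding genes the largest rise that the rule named was Rmnd1, which encodes a mitochondrial inner membrane protein needed for translation in mitochondria. Rmnd1 (chromosome 10) had 3.43, 2.36, 2.45 and 3.37 FPKM in New, against 1.04, 0.628 and 0.783 FPKM in WT 1 to WT 3. The groups did not overlap, and WT 4 lay between them at 1.77 FPKM. The difference of 1.72 (SE 0.20) did not pass (limma, adjusted p = 0.145). Old 2 to Old 4 had 4.65, 3.98 and 2.00 FPKM, also above WT 1 to WT 3.

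Ifitm1, an interferon-induced membrane protein that restricts virus entry, had 1.64, 1.44, 1.83 and 1.96 FPKM in New, against 0.882, 0.662 and 1.06 FPKM in WT 1 to WT 3 and 0.693 FPKM in WT 4. New lay above all 4 WT libraries, by 0.92 (SE 0.17; limma, adjusted p = 0.430). The histone gene Hist1h2bm had a difference of 0.89 (SE 0.16; limma, adjusted p = 0.430), but its highest value, 7.29 FPKM, was in WT 4. Oaz1-ps, a pseudogene of the antizyme gene Oaz1, had 3.05 to 6.20 FPKM in New, against 0.00400 to 0.582 FPKM in WT 1 to WT 3 and 0.00408 FPKM in WT 4 (limma, adjusted p = 0.217). Fragments of Oaz1 itself may be counted there, so its value is uncertain. Cib2, a calcium-binding protein gene chosen after its values were seen, had 9.48, 10.5, 10.8 and 9.90 FPKM in New, against 7.63, 7.44 and 7.03 FPKM in WT 1 to WT 3, yet 11.1 FPKM in WT 4.

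A group of the largest falls moved with 1 library. Lars2 encodes the leucyl-tRNA synthetase of mitochondria, and it had 2327, 3881, 2406 and 4533 FPKM in New, against 4558, 11285 and 5066 FPKM in WT 1 to WT 3. WT 2 stood above the other 6 libraries for this gene and for ENSMUSG00000098178.1, the most abundant row of that library, with 19417 to 43896 FPKM in New and 115807 FPKM in WT 2. Rn45s, the ribosomal RNA precursor, chosen after its values were seen, likewise had 8238 to 14940 FPKM in New and 32394 FPKM in WT 2. The 10 most abundant rows took 31.95% to 36.03% of the FPKM sum in New, against 49.8% in WT 2 and 35.01% to 35.62% in WT 1 and WT 3. None of these genes passed (limma, adjusted p = 0.460 for Lars2). Without WT 2 the Lars2 difference was -0.61 (limma, adjusted p = 0.702), against -1.02 with it, and the part of ribosomal RNA carry-over in them was not tested.

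The partners of tPA stood close to WT. Of 28 genes of the plasminogen system 17 passed the filter on low values; those left out include plasminogen itself (Plg) and the urokinase receptor gene Plaur, each under 0.5 FPKM on average. Plat was the 1 member called, 8 members lay above WT and 9 below, and the median was -0.02.

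Neuroserpin (Serpini1), the main neuronal inhibitor of tPA, had 61.95, 60.3, 56.6 and 59.4 FPKM in New, against 60.3, 63.5 and 57.1 FPKM in WT 1 to WT 3. The groups overlapped, with a difference of -0.02 (95% interval -0.13 to 0.10). WT 4 had 29.2 FPKM, and with it the difference turned to 0.24. The plasminogen receptor gene Plgrkt, listed as 5033414D02Rik, differed by 0.05 (SE 0.09). Protease nexin-1 (Serpine2) differed by 0.05 (SE 0.03), urokinase (Plau), the other plasminogen activator, by -0.07 (SE 0.17), and the clearance receptor Lrp1 by 0.00 (SE 0.04). The complement and contact inhibitor Serping1 had 2.64, 2.66, 2.78 and 2.79 FPKM in New, against 3.25, 2.97 and 3.02 FPKM in WT 1 to WT 3 and 3.18 FPKM in WT 4. It lay below every WT library, by -0.17 (SE 0.06; limma, adjusted p = 0.444).

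Among 37 tested receptors and substrates linked to tPA in brain, 0 were called by limma and 1 had an unadjusted p under 0.05. That gene was Bcan, which encodes the matrix proteoglycan brevican, with 38.9 to 43.5 FPKM in New, against 36.1 to 37.5 FPKM in WT 1 to WT 3; WT 4, at 60.1 FPKM, lay above New. Neurocan (Ncan), a related proteoglycan, had 37.2 to 39.2 FPKM in New, against 31.4 to 36.7 FPKM in WT 1 to WT 3 and 32.1 FPKM in WT 4, above all 4. The median of the list was 0.05 and its members ran from -0.18 to 0.18.

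Gene groups of brain cells and pathways were described by counts, since limma called no listed gene besides Plat and Gsn. The counts read against 4.74% of all genes with an unadjusted p under 0.05 and higher, and 5.37% lower. Counts of members above or below WT read against all 16149 tested genes, of which 7679 (47.55%) lay above WT and 8470 below. With WT 4 entered most of these counts were smaller, to be read against 1.29% and 0.631% of all genes. Myelin then had 5 members higher, oxidative phosphorylation 4 higher and 2 lower, and cholesterol synthesis and microglial genes 1 higher each. Heat shock genes had 1 higher and 0 lower, and monoamine neuron, oligodendrocyte precursor and ribosomal protein genes had 0 in either direction. With the GC trend removed from the 7 libraries, 4.07% of all genes were higher and 3.51% lower. Microglial genes then had 2 higher and 0 lower, cholesterol synthesis 5 and 0, and heat shock 1 and 3. Myelin had 8 and 0, precursors 3 and 0, monoamine neurons 0 and 5, oxidative phosphorylation 15 and 4, and ribosomal proteins 7 and 6.

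Myelin genes had 9 of 36 members higher at an unadjusted p under 0.05 and 0 lower, and 9 higher without overlap. Mog, a surface protein of the outermost myelin layer, had 32.7, 34.3, 31.1 and 31.1 FPKM in New, against 25.8, 27.9 and 26.9 FPKM in WT 1 to WT 3 and 17.9 FPKM in WT 4. New lay above all 4 WT libraries, by 0.27 (SE 0.05; limma, adjusted p = 0.422). Mag, an adhesion protein of the inner myelin face, stood 0.21 (SE 0.05) higher, with WT 4 above New at 58.3 FPKM. Yet 15 of the 36 members lay below WT, the median was 0.06, and the mean log2 level of the list overlapped between groups. The part of cell composition in these counts was not tested.

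Oligodendrocyte precursor genes lay above WT in 14 of 15 members, 3 of them at an unadjusted p under 0.05, with a median of 0.13. The endothelin receptor gene Ednrb, which is also made by astrocytes, had 14.1, 14.3, 13.7 and 13.6 FPKM in New, against 11.9, 12.5 and 13.2 FPKM in WT 1 to WT 3 and 7.56 FPKM in WT 4, above all 4. The marker sum of Pdgfra and Cspg4 overlapped, at 11.2 to 11.7 FPKM in New, against 10.2 to 11.5 FPKM in WT.

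Cholesterol synthesis genes lay above WT in 25 of 27 members, with a median of 0.12 (0.15 with WT 4). At an unadjusted p under 0.05 there were 9 higher and 1 lower. Acat2, which makes acetoacetyl-CoA for the first step, had 6.85, 6.34, 6.68 and 5.58 FPKM in New, against 4.67, 4.95 and 5.73 FPKM in WT 1 to WT 3 and 4.33 FPKM in WT 4. New 4 fell within the WT range, and the difference was 0.31 (SE 0.09; limma, adjusted p = 0.444). Mevalonate kinase (Mvk) stood 0.20 (SE 0.06) higher and Scap, the escort of the sterol-sensing transcription factor SREBP, 0.14 (SE 0.05), both without overlap in the 7 libraries and both below WT 4. The lower gene was Ggps1, chosen after its values were seen, which makes geranylgeranyl groups for protein anchoring rather than sterol, at -0.10 (SE 0.04).

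**Figure D3:**
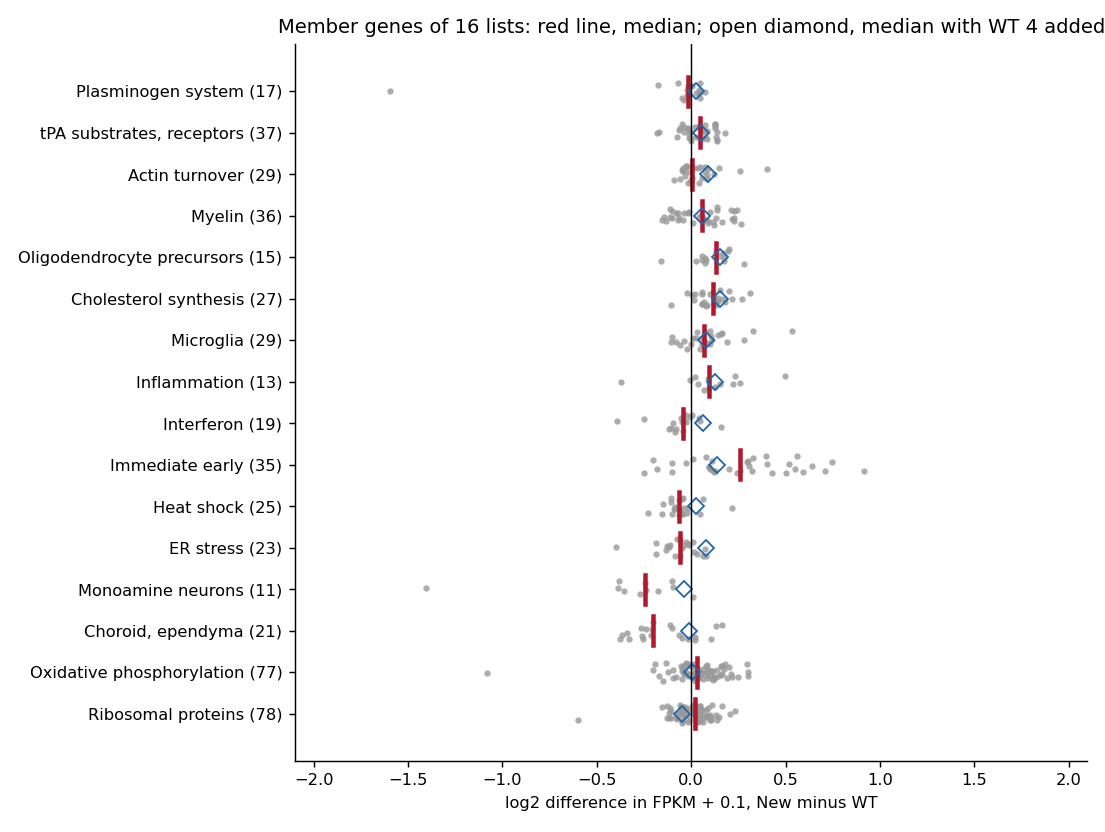
Log2 difference (New minus WT) of each tested member of 16 lists, 1 grey point per gene, with the number of members in brackets. The red line is the median over the 7 libraries and the open diamond the median with WT 4 added; cholesterol synthesis sits right of 0 under both (0.12 and 0.15), while heat shock and ER stress change side.

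Microglial genes lay above WT in 22 of 29 members, 5 of them at an unadjusted p under 0.05, with a median of 0.07. Tyrobp, the adaptor of TREM2 and other surface receptors, had 11.9, 11.7, 11.6 and 11.6 FPKM in New, against 10.8, 8.64 and 8.69 FPKM in WT 1 to WT 3 and 8.29 FPKM in WT 4. New lay above all 4 WT libraries, by 0.33 (SE 0.08; limma, adjusted p = 0.444). The transcription factor PU.1, listed under its older symbol Sfpi1, stood 0.54 (SE 0.14) higher and the complement gene C1qa 0.14 (SE 0.04), but both were higher still in WT 4, at 1.32 and 24.1 FPKM. The marker sum of Cx3cr1, P2ry12 and Tmem119 overlapped, at 24.6 to 28.5 FPKM in New, against 23.3 to 26.3 FPKM in WT.

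In the inflammation list 13 of 31 genes passed the filter, 11 above WT and 2 below, with a median of 0.09 (0.13 with WT 4). Il6 was listed at 0 in all 7 libraries. Nfkbia, the inhibitor of NF-kappa-B that this factor itself induces, had 8.81, 10.2, 10.3 and 8.15 FPKM in New, against 6.62, 6.52 and 6.62 FPKM in WT 1 to WT 3 and 5.72 FPKM in WT 4. All New libraries lay above all 4 WT libraries, by 0.49 (SE 0.09; limma, adjusted p = 0.406). Interferon genes leaned the other way, with 15 of 19 below WT, 1 of them at an unadjusted p under 0.05 (Isg15, a ubiquitin-like modifier, at -0.40, SE 0.14), although their median was -0.04 and turned to 0.06 with WT 4.

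Heat shock genes lay below WT in 22 of 25 members, 5 of them at an unadjusted p under 0.05, and 5 were lower without overlap. Chordc1, a co-chaperone of Hsp90, had 25.1, 25.3, 24.6 and 24.5 FPKM in New, against 29.2, 29.99 and 28.4 FPKM in WT 1 to WT 3, a difference of -0.23 (SE 0.03; limma, adjusted p = 0.198). Its transcript has 35.7% GC, and WT 4 had 12.97 FPKM. Stip1, which links Hsp70 to Hsp90, had 51.3, 52.6, 49.5 and 55.8 FPKM in New, against 56.9, 58.2 and 58.7 FPKM in WT 1 to WT 3 and 52.4 FPKM in WT 4 (-0.15, SE 0.04). Dnajb1, an Hsp40 partner of Hsp70, stood higher, by 0.22 (SE 0.07). The median of the list was -0.06 and turned to 0.03 with WT 4. ER stress genes were alike, with 17 of 23 below WT and a median of -0.06 that turned to 0.08; Chac1, which degrades glutathione, stood lowest at -0.40 (SE 0.11).

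Genes of monoamine neurons lay below WT in 10 of 11 members, 5 of them at an unadjusted p under 0.05. Tyrosine hydroxylase (Th), the first enzyme of dopamine synthesis, had 2.29, 2.40, 2.29 and 3.20 FPKM in New, against 3.72, 2.85 and 3.47 FPKM in WT 1 to WT 3 and 2.05 FPKM in WT 4. New 4 lay inside the WT range. Ddc, the next enzyme, had 2.92, 2.90, 2.63 and 3.10 FPKM in New, against 3.71, 3.18 and 3.45 FPKM in WT 1 to WT 3 and 2.03 FPKM in WT 4 (-0.25, SE 0.08; limma, adjusted p = 0.444). Tph2, the first enzyme of serotonin synthesis, also chosen after its values were seen, ranged from 0.283 to 1.24 FPKM in New and from 0.817 to 2.81 FPKM in WT 1 to WT 3. The median was -0.25, and -0.04 with WT 4. These nuclei lie deep in the brain: the marker sum of Th, Slc6a3 and Tph2 was 3.62 to 6.63 FPKM in New, against 6.17 to 8.34 FPKM in WT. The part of dissection was not tested.

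Choroid plexus and ependymal genes lay below WT in 16 of 21 members, with a median of -0.20 (-0.01 with WT 4), and 2 of them had an unadjusted p under 0.05. Rsph1, a part of the radial spoke of motile cilia, had 2.31, 2.06, 1.98 and 2.33 FPKM in New, against 2.66, 2.93 and 2.88 FPKM in WT 1 to WT 3 and 2.58 FPKM in WT 4, below all 4. Its difference was -0.37 (SE 0.08; limma, adjusted p = 0.444). Calml4 stood at -0.33 (SE 0.10). Sums of choroid markers overlapped, at 200.7 to 236.0 FPKM in New, against 193.8 to 269.9 FPKM in WT.

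Immediate early genes, which neurons switch on within minutes of activity, had a median of 0.26 (0.14 with WT 4), with 29 of 35 members above WT, but 2 members at an unadjusted p under 0.05. Fos, chosen after its values were seen, had 24.2, 22.8, 5.69 and 19.6 FPKM in New, against 5.37, 6.97 and 23.7 FPKM in WT 1 to WT 3 and 19.2 FPKM in WT 4. The low libraries were New 3, WT 1 and WT 2, so both groups held low and high mice and the groups overlapped. Nptx2, a synaptic pentraxin, was 0.30 (SE 0.09) higher without overlap, with 9.59 to 12.1 FPKM in New, against 7.60 to 9.17 FPKM in WT 1 to WT 3 and 16.3 FPKM in WT 4.

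**Figure D4:**
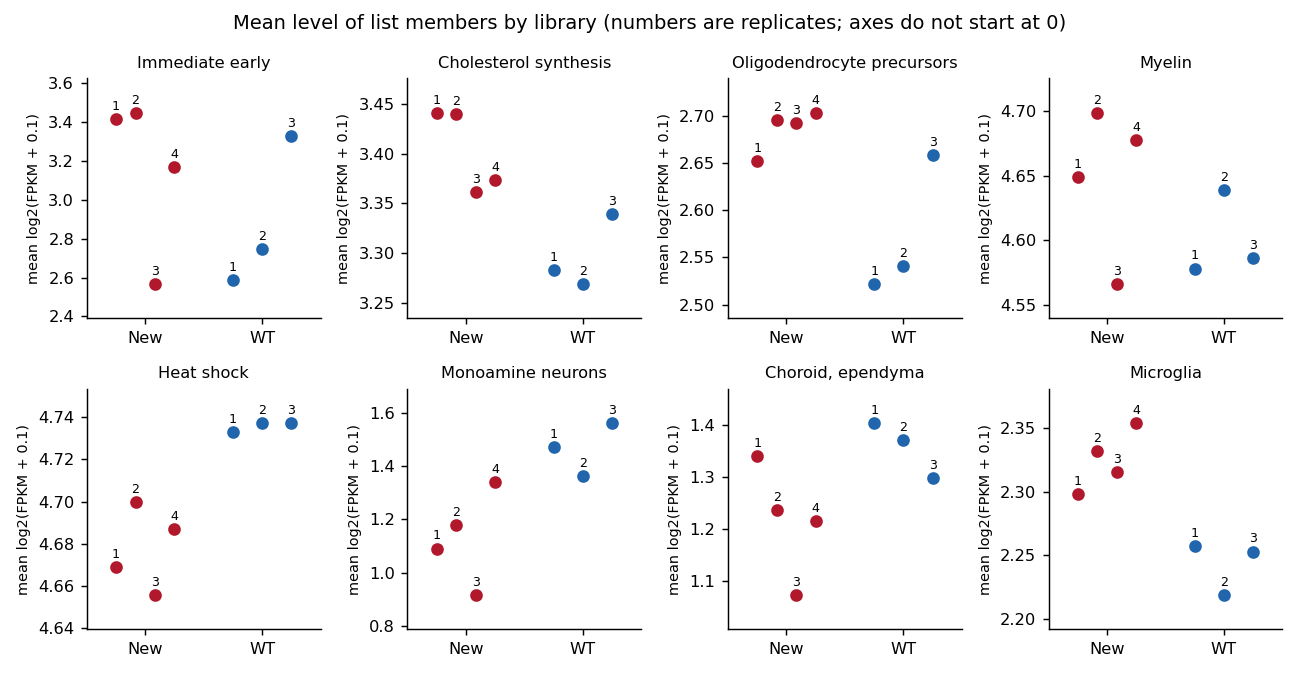
Mean log2(FPKM + 0.1) over the tested members of 8 lists in each library, New at the left (red) and WT 1 to WT 3 at the right (blue), with replicate numbers; the axes do not start at 0. New 3, WT 1 and WT 2 are the low libraries for immediate early genes, and the groups drawn separate for cholesterol synthesis, heat shock, monoamine neuron and microglial genes. WT 4, which is not drawn, lay below every New library in these lists. For cholesterol synthesis (3.10) and microglial genes (2.17) that is the side of WT 1 to WT 3. For heat shock (4.51) and monoamine neuron genes (0.566) it is the opposite side.

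Lists of basic metabolism had medians near 0, with members on both sides of WT. Of 77 nuclear genes of oxidative phosphorylation, 14 were higher and 5 lower at an unadjusted p under 0.05, and the median was 0.03 (0.01 with WT 4). Sdhd, an anchor subunit of complex II, had 25.2, 25.8, 25.9 and 24.8 FPKM in New, against 21.9, 21.9 and 23.3 FPKM in WT 1 to WT 3 and 22.4 FPKM in WT 4, above all 4, by 0.18 (SE 0.03; limma, adjusted p = 0.430). Atp5g1, a subunit of the ATP synthase ring, stood 0.22 (SE 0.04) higher, with WT 4 at 60.5 FPKM inside the WT range. Of 78 ribosomal protein genes, 7 were higher and 4 lower at an unadjusted p under 0.05. Rps2 stood at 0.10 (SE 0.03) and Rpl23 at -0.15 (SE 0.05), and the median was 0.02 (-0.05 with WT 4). In each list 1 gene of low level lay farther out with a wide error, Ndufs5 of complex I at -1.08 (SE 1.78) and Rpl30 at -0.60 (SE 0.88), both chosen after their values were seen.

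Other lists held 0 genes called by limma and few at an unadjusted p under 0.05. Of 25 astrocyte genes, 12 lay above WT and 13 below, with 1 at an unadjusted p under 0.05 in each direction. Of 29 endothelial genes, 13 lay above and 16 below (1 and 0). Of 18 general neuronal genes, 6 lay above and 12 below (2 and 1), and of 25 genes of cortical layers, 9 and 16 (2 and 2). Glutamate receptor subunits divided into 10 above and 14 below (2 and 0), and GABA receptor subunits into 5 and 11 (0 and 2). Striatal genes divided into 15 above and 10 below (1 and 1), and thalamic genes into 11 and 12 (1 and 1). Of 22 circadian clock genes, 14 lay above and 8 below, with 3 at an unadjusted p under 0.05, all lower. The medians of these 9 lists ran from -0.04 (GABA receptors) to 0.04 (clock). Elsewhere, 12 of 15 hypothalamic peptide genes lay above WT, with a median of 0.13 (0.01 with WT 4). So did 9 of 11 antigen presentation genes (0.12 and 0.05) and 16 of 21 fibroblast and meningeal genes (0.09 and 0.01). Pericyte and smooth muscle genes had 13 of 16 above (0.06 and 0.06). Hippocampal genes leaned lower, with 6 above and 10 below, as did glucocorticoid-induced genes, with 10 and 14.

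Genes beside Plat were described because a mutation made in cells of another strain can bring flanking chromosome with it. Within 10 Mb of Plat 107 other genes were tested and 0 were called by limma, 3 had an unadjusted p under 0.05 and were higher and 8 were lower. The groups did not overlap for 4 higher and 7 lower genes. Over all genes 4.74% were higher and 5.37% lower at that p, and 5% were higher and 5.84% lower without overlap. The median was -0.02, against 0.00 for the 710 tested genes on the rest of chromosome 8. With WT 4 added the medians were 0.07 and 0.02, so the sign near Plat and the order of the medians turned round. The smallest p there belonged to Gpr124, a receptor needed for brain vessels and chosen after its values were seen, which averaged 2.25 FPKM in New and 1.81 FPKM in WT (0.29, SE 0.07; limma, adjusted p = 0.444).

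**Figure D5:**
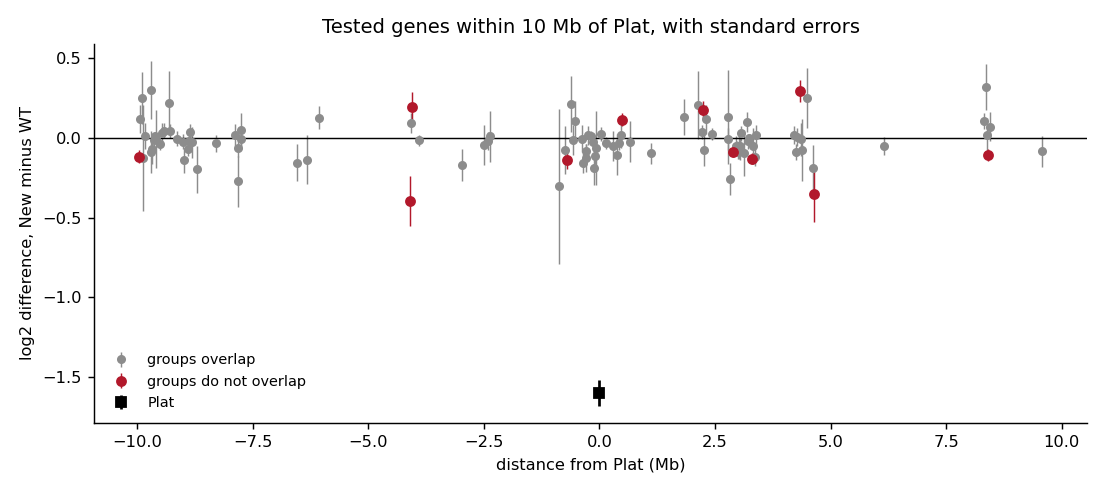
Log2 difference (New minus WT) of 107 tested genes against their distance from Plat in Mb, with standard errors; red points are genes whose groups do not overlap. Plat (black square) lies at -1.60 and all neighbours lie between -0.5 and 0.5.

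New was also set directly against Old, the other strain without working Plat, in the 10 libraries that resembled each other (4 New, 3 Old and 3 WT sharing 1 spread). Old 1 had a GC deviation like that of WT 4 and was left out with it. Of 16209 genes 6 were called (0.037%), and 5 of them lie on chromosome 8, the chromosome of Plat. With Old 1 and WT 4 included 2 were called, Stxbp2 and Sycp1. Stxbp2, a regulator of vesicle fusion, had 6.62, 6.25, 6.98 and 6.44 FPKM in New and 2.62 ± 0.312 FPKM in Old (SD, n = 3), while WT 1 to WT 3 had 5.76, 5.57 and 6.33 FPKM. New was 1.30 (SE 0.08) above Old (limma, adjusted p = 0.000212), and the difference of New from WT was 0.16 with a 95% interval of -0.02 to 0.34. The chemokine gene Ccl25 averaged 2.29 ± 0.189 FPKM in New (n = 4), 5.39 ± 0.611 FPKM in Old (n = 3) and 2.15 ± 0.373 FPKM in WT (n = 3). Here New was -1.19 (SE 0.12) from Old (limma, adjusted p = 0.0104) and 0.10 from WT, with a 95% interval of -0.18 to 0.38. For Plat, New was 0.67 (SE 0.12) above Old, which did not pass (limma, adjusted p = 0.298).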

How the data were processed

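The authors deposited 1 table of FPKM values (fragments relative to transcript length and library size) with 1 column per library, and no counts were used, so read depth is unknown. The submitters' processing notes name FastQC, Bowtie2 2.1.0 and TopHat2 2.0.9 beside Cuffdiff 2.1.1 and Cufflinks, and the mm10 build; neither strand setting nor annotation is given in the sources used here. Fragments are divided by Cuffdiff between overlapping transcripts by estimation, so copies, pseudogenes and genes inside other genes are uncertain, and a value of exactly 0 means that a gene is listed at 0.

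Columns were matched to samples by the labels. Genes with a mean of at least 0.5 FPKM over the 7 libraries (16149) were compared as log2(FPKM + 0.1), New minus WT, with limma 3.58.1 in R 4.3.3 (empirical Bayes with a trend); Benjamini-Hochberg adjustment ran over all tested genes with a threshold of 0.05. Fold changes of low genes are understated on this scale. The procedure was also run on simulated data with noise drawn separately for each gene. Those data held no GC-linked deviation, so the run does not cover the GC trend of these libraries. New was set against Old in a fit of 10 libraries. Exact two-sided permutation tests used the 35 assignments of 4 and 3 libraries and doubled the smaller tail. Coordinates and GC content came from GENCODE M21; row names matched by symbol (20672), Ensembl identifier (3914) or synonym (1839), 681 rows had no match and 25 had been turned into dates. GC content was known for 98.0% of tested genes.

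The libraries, the 38 gene lists and the tests were chosen with earlier results of these data known. Named genes were taken by a rule: Plat, called genes, the 10 largest rises and falls without overlap, the 3 members of each list with the smallest p, the plasminogen and gelsolin lists, and Sycp1, Stxbp2 and Ccl25. A gene outside the rule is marked as picked with its values in view (written as chosen after its values were seen). Alternatives changed the pseudocount, filter, scaling, GC trend, library weights, spread model and the libraries entered. Some genes are not reported here.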

Additional observations from a re-analysis of the deposited data

Results flagged for a closer look

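Some genes had 1 New library far from the other 3, by the gap to its neighbour relative to the range; chance alone gives about 1 in 20 such groups. The highest New value of Plat was 3.15 FPKM, in New 3, that of Th was 3.20 FPKM and that of Tph2 was 1.24 FPKM, both in New 4. The lowest New value of Rpl23 was 68.9 FPKM and the highest of Lrp1 was 45.3 FPKM, both in New 3, the library with neither Xist nor Ddx3y.

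The difference from WT was not the same in the New and the Old strain for 6 genes, by the limma contrast of New against Old. New minus Old was 1.30 for Stxbp2 (adjusted p = 0.000212), -1.19 for Ccl25 (adjusted p = 0.0104) and -4.58 for Sycp1 (adjusted p = 0.000212), a gene of meiotic chromosome pairing that New and WT held at or near 0 and Old at 2.39 ± 0.0116 FPKM (SD, n = 3). It was -1.07 for the pseudogene 6820431F20Rik (adjusted p = 0.0167), and -1.02 and -0.72 for the non-coding genes ENSMUSG00000097230.1 and ENSMUSG00000097263.1 (adjusted p = 0.00300 and 0.000320).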

How the results depend on the processing

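Plat stayed called in all 19 alternatives (difference -1.67 to -1.35, adjusted p 0.000579 to 0.0168). The number of genes called, 3, was 1 (Plat) with a pseudocount of 1, with no filter, with an untrended fit, and with WT 4 included, with or without removal of the GC trend; leaving out 1 library gave 1 to 8. It was 1 without New 4, and 8 without WT 3. Those 8 were Plat, Gsn, Ide and Nnt, and Mir701, Mir1982, Mir1966 and Oaz1-ps, which are short genes or a pseudogene. New against Old gave 2 calls (Stxbp2 and Sycp1) when WT 4 and Old 1 were included, against 6, and 4 to 11 with 1 library left out, the 11 without Old 2. The cause was not tested.

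Of 1042 single-gene values under alternatives, 20 changed sign, 8 of them with WT 4 included. That setting gave 0.00857 for Gas5, 0.0602 for Chordc1, 0.12 for Ggps1, -0.0258 for C1qa, -0.0503 for Rps2, 0.24 for Serpini1, -0.12 for Lrp1 and -0.0386 for Bcan. With WT 4 and the GC trend removed, Rps2 was -0.0287, Serpini1 0.0910, Lrp1 -0.0614 and Ccl25 -0.0445. With the GC trend removed from the 7 libraries, Serpini1 was 0.0603 and Lrp1 -0.0455, and library weights gave -0.0142 for Lrp1. With 1 library left out the values ran from -0.0557 to 0.0208 for Serpini1, from -0.0236 to 0.0154 for Lrp1 and from -0.0455 to 0.174 for Ccl25. Of 38 list medians, 24 changed sign in some alternative. Those of cholesterol synthesis, oligodendrocyte precursors, myelin, microglia and monoamine neurons were among the 14 that did not.

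No paired analysis was possible because the replicate numbers of New were given in accession order and pair no mice. Read depth is unknown, so counting error could not be separated from the spread between mice.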
